A study of Mus musculus with 59 samples.

Results

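Melan-a cells treated with agouti signaling protein (ASP) for 2 days were compared with untreated melan-a cells on 5 of the 59 arrays of the series. The 5 arrays are those whose second channel held RNA of cells given ASP for 2 d. Melan-a is a melanocyte line that grows without limit, makes pigment and came from C57BL6 mice, and both channels of every array held RNA of this line. The treated cells received recombinant murine ASP at 10 nM, and the untreated cells received no agent that the labels name. On 2 arrays, called direct here, the treated RNA carried the dye Cy5, and on 3 arrays, called reverse, it carried Cy3. The design text gives 3 biological replicates for each time, each hybridised in both dye orientations, so that 1 direct array is not analysed here. For tests of a difference, ASP at 2 d was compared with groups of 6 arrays each. These were ASP at 1 d, ASP at 3 d and alpha-melanocyte stimulating hormone (α-MSH, 100 nM) at 2 d. Values of ASP at 3 h and 4 d and of α-MSH at 3 h, 1 d, 3 d and 4 d are also given. All of these groups were set against untreated melan-a cells. All 59 arrays entered the estimate of the spread, and the 29 ASP arrays entered that of the ASP dye effect described below. A single cell line stood for the melanocyte, and whether the replicates were separate cultures is not stated beyond the word biological. The p-values measure the spread between replicates of this line, estimated over both drugs and all times together, and not the spread at 2 d alone.

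ASP is the natural antagonist of the melanocortin 1 receptor of pigment cells. α-MSH activates this receptor, raises cyclic AMP in the melanocyte and drives the synthesis of dark eumelanin, and ASP opposes this signal and turns pigment synthesis away from eumelanin towards yellow pheomelanin. The question of the comparison is which transcripts changed in melanocytes after ASP had acted for 2 d. No file used here links a probe number to a gene, so pigment genes and the markers of melanocytes or of other cells could not be checked by name, and probes are given by their number.

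Each value is a log ratio of treated to untreated RNA on 1 array, taken as log2. The ratio likely has treated RNA as its numerator, the order in which the design text writes the hybridisation, and all of "raised" and "lowered" rests on that reading. Between 29287 and 33370 of 38591 probes had a value on each of the 5 arrays, and 25545 had a value on all 5, while 2244 had none. The deposited array medians lay between -0.011 and 0.186, and these medians were subtracted. Precision is limited by having 5 arrays. The median SD between replicates was 0.331 at 2 d, compared with 0.21 for ASP at 3 d and 0.443 at 1 d.

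Arrays of opposite dye orientation disagreed across probes at 2 d and at 1 d of ASP, in part at 3 h and 4 d, and not at 3 d. Across probes, the 2 direct arrays correlated at 0.409 and the 3 reverse arrays at 0.311 to 0.573, but arrays of opposite orientation correlated at -0.243 to -0.119. A dye effect per probe was estimated from the 29 ASP arrays, and removing it moved the last range only to -0.295 to 0.033. After the correction ASP at 3 h gave -0.38 to 0.4, ASP at 1 d gave -0.239 to 0.324, ASP at 3 d gave 0.189 to 0.305 and ASP at 4 d gave -0.047 to 0.474. The highest value at 2 d thus lay below the highest at every other ASP time. Before the correction, ASP at 3 h gave -0.709 to 0.209 and ASP at 1 d gave -0.641 to -0.05. ASP at 3 d gave 0.052 to 0.185 and ASP at 4 d gave -0.505 to 0.271. The dye effect of each time was taken as the difference between the means of the orientations, divided by 2. Its median size was 0.243 at 2 d, below the 0.498 of 3 h, the 0.431 of 1 d and the 0.289 of 4 d. At 3 d it was 0.199. The difference between the dye orientations at 2 d correlated across probes at 0.13 to 0.281 with that at the other ASP times. A mean over both orientations cancels such a dye effect, but replicate 3 at 2 d is a lone reverse array and keeps what the correction left. Probes, which share arrays and RNA, are not independent replicates, and these correlations are descriptions.

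**Figure D1:**
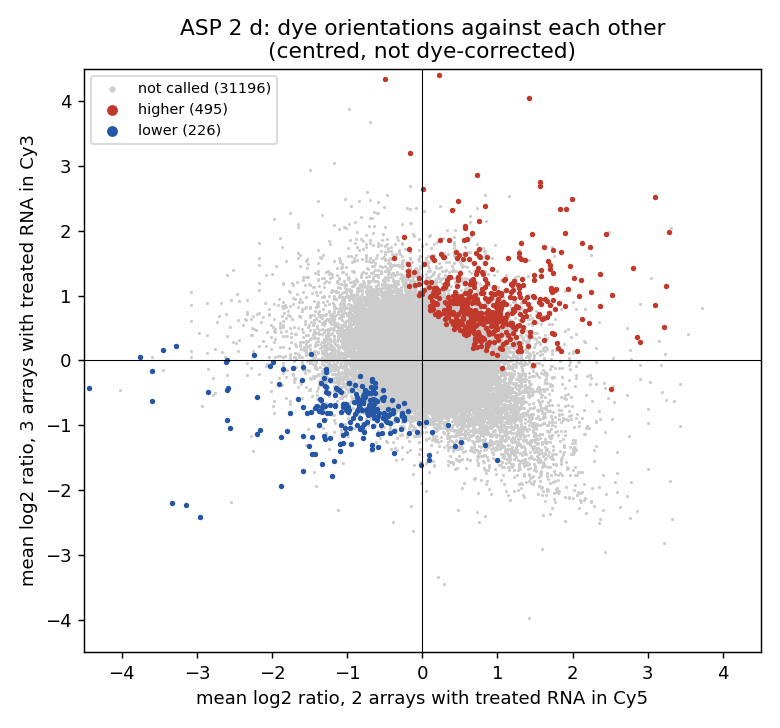
Mean log2 ratio of each probe tested at ASP 2 d over the 3 reverse arrays (vertical) against that over the 2 direct arrays (horizontal), centred and before dye correction, with the 495 raised probes in red, the 226 lowered in blue and the others in grey; 4 probes lie outside the axes. The grey cloud leans from upper left to lower right, whereas 687 of the 721 called probes have the sign of their call in both orientations.

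After 2 d of ASP, 721 of 31917 tested probes differed from untreated cells, which is 2.26% (limma, adjusted p under 0.05). Of these, 495 were raised (1.55%) and 226 lowered (0.708%). The raised probes changed by a median of 1.83-fold, from 1.38-fold to 8.13-fold, and the lowered ones by a median of 1.67-fold, from 1.34-fold to 5.84-fold. A change of 2-fold or more was found in 168 raised and 52 lowered probes, and of 4-fold or more in 13 raised and 3 lowered probes. Most changes at 2 d were therefore below 2-fold. Over all tested probes the median log2 ratio was 0.006, and 483 probes stood at 2-fold or more whether called or not. Without adjustment, 4530 probes (14.2%) had a limma p under 0.05.

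The balance of raised and lowered probes depended on the processing, and with the numerator reversed the directions would trade places. Raised probes made up 68.7% of the calls in the fit reported, with 495 against 226. The shares were 57.7% without centring (733 raised and 538 lowered) and 55.3% with all arrays scaled to the same spread (1983 and 1603). With the dye bias of each array removed by loess the share was 59.1% (795 and 551). It was 55.1% with the dye effect taken from each group alone (337 and 275). That last fit also gave the lone reverse array less weight than a pair, so both changes enter its share. Over every probe with an estimate the split was almost even, 707 raised and 688 lowered (50.7%), whereas it was 77.2% raised with a trended and robust prior and 82.3% without ASP 2 d replicate 1. When replicates were weighted by their number of arrays, so that the lone reverse array counted less than a pair, 408 probes passed, 271 raised and 137 lowered. Of these 408, 399 were among the 721. In a single simulated data set, the fit that gave 721 made a larger share of false calls than its threshold allows. The weighted fit made fewer, but its share also lay above the threshold. The simulation gave all arrays of a drug the same dye effect. In the data the dye difference at 2 d correlated only weakly with that at other ASP times. The share of false calls among the 721 or the 408 was therefore not measured.

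Most called probes had the sign of their call in both dye orientations, and fewer had it on every array. Before dye correction, the mean had the sign of the call in both dye orientations for 476 of the 495 raised and 211 of the 226 lowered probes. Over all tested probes the orientations shared a sign in 42.6%. Of the 663 called probes with a value on all 5 arrays, 527 had the sign of the call on each array, 353 of 459 raised and 174 of 204 lowered, and 552 had it after dye correction. Among all probes with 5 values, 13.6% had 1 sign on all 5 arrays. The probes were called from the mean of these same arrays, which favours probes whose signs agree, so these counts describe the calls and are no separate evidence for them.

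The arrays differed in how far the called probes moved on them. In centred values the raised probes had a median of 0.799 and 0.815 on direct arrays 1 and 2, and of 0.486, 0.972 and 0.932 on reverse arrays 3, 4 and 5. Array 3 thus showed the smallest rise of the 5 before dye correction. After it the medians were 0.679 and 0.693 on the direct and 0.638, 1.084 and 1.049 on the reverse arrays, so that array 3 lay close to arrays 1 and 2. The lowered probes had centred medians of -0.97 and -0.715 on the direct and -0.684, -0.826 and -0.783 on the reverse arrays, with the deepest fall on array 1. After dye correction they were -1.142 and -0.88 on the direct and -0.541, -0.702 and -0.597 on the reverse arrays, deeper on both direct arrays. On array 3, 430 of 483 raised probes lay above 0, compared with 480 of 483 on array 5. Of the 663 called probes with 5 values, 20 had an array more than 3 log2 units from the median of the 5. The distant array was array 1 for 11 of them, array 2 for 7 and array 4 for 2.

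The largest changes with the same sign on all 5 dye-corrected arrays were those of 4 probes, the 2 that rose the most and the 2 that fell the most. Probe 1776770_1 rose the most. Its centred log2 ratios were 3.05 and 3.14 on direct arrays 1 and 2 and 0.6, 2.67 and 4.31 on reverse arrays 3, 4 and 5. All 5 lay above 0, but the reverse arrays spanned the whole range, with array 3 the lowest and array 5 the highest. Before centring, the deposited value was 3.154 on both direct arrays. The mean over replicates was 3.02 on the log2 scale (SD 1.26, n = 3, SE 0.33, limma adjusted p = 2.1e-05), or 8.13-fold. Here and below, the SE and p come from the spread pooled over all groups, whereas the SD is that of the 3 replicates at 2 d.

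Probe 1773761_1 gave centred log2 ratios of 1.77 and 2.21 on the direct arrays and 1.92, 2.59 and 2.95 on the reverse arrays. Its arrays lay closer together, and the orientations overlapped. It rose by 2.35 on the log2 scale (SD 0.49, n = 3, SE 0.21, limma adjusted p = 1.8e-06), or 5.11-fold.

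Probe 1796764_1 fell the most. Its centred log2 ratios were -3.78 and -2.9 on the direct arrays and -2, -2.63 and -1.96 on the reverse arrays. Both direct arrays lay below all reverse arrays. The mean over replicates was -2.55 on the log2 scale (SD 0.49, n = 3, SE 0.47, limma adjusted p = 0.0035), a fall of 5.84-fold.

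Probe 1775850_1 gave -2.87 and -3.06 on the direct arrays and -2.71, -2.28 and -2.27 on the reverse arrays. Again the direct arrays were the lower ones, with a narrow span over all 5. Its mean over replicates was -2.52 (log2, SD 0.37, n = 3, SE 0.37, limma adjusted p = 0.00043), a fall of 5.75-fold.

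**Figure D2:**
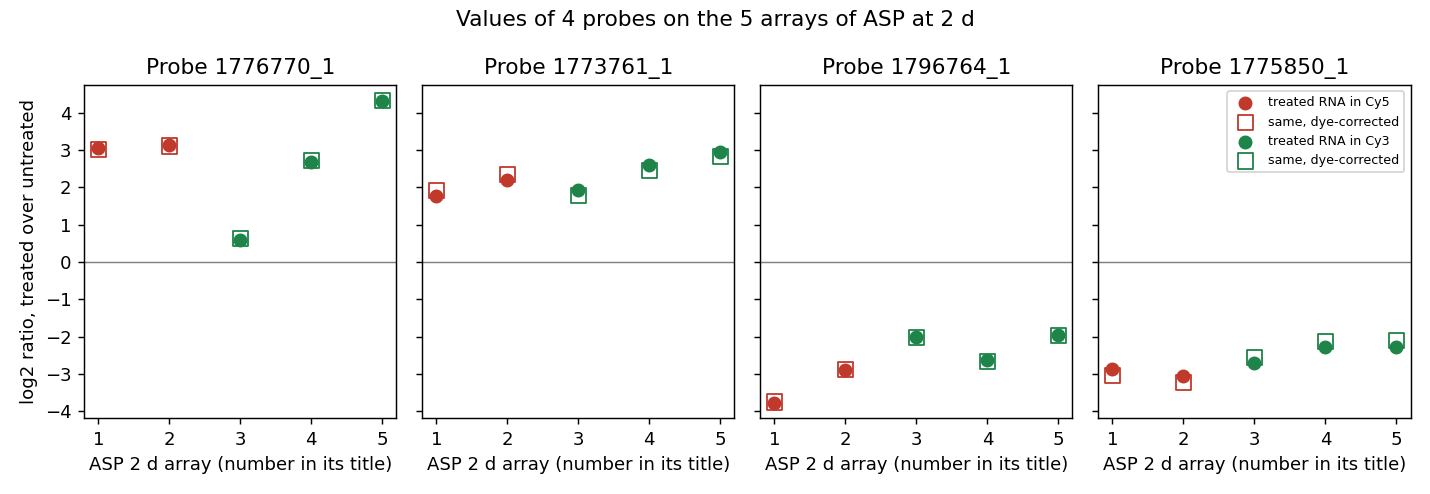
Log2 ratio (vertical) of the 4 probes on each ASP 2 d array, numbered as in its title (horizontal), as centred values (filled circles) and after dye correction (open squares), with treated RNA in Cy5 in red and in Cy3 in green. Every value of the raised probes lies above 0 and every value of the lowered probes below 0, and array 3 gives the lowest value of probe 1776770_1, 0.6.

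How many probes passed depended on single replicates and on the source of the spread. Without replicate 1, 2 or 3 the calls were 524, 331 and 331, and of the 721 probes 376, 254 and 253 stayed called. Leaving out 1 array at a time gave 1101 calls without array 1, 1643 without array 2, 940 without array 3 and 617 without array 4. Each of these removals left a further replicate with 1 array. Array 5 is replicate 3 alone, so leaving it out is the fit with 331 calls already given. With the spread estimated from ASP replicates alone, 311 probes passed. With the spread from the 3 replicates at 2 d alone 0 passed in limma, where 2369 had an unadjusted p under 0.05. A group of 120 probes, 96 raised and 24 lowered, was called in the fit reported and without each of the 3 replicates. It was also called in the weighted fit and with the dye effect from each group alone, a fit that was weighted too. It makes up 16.6% of the calls, and its median log2 ratio was 1.21 for the raised and -1.1 for the lowered probes. This group was put together after the results were seen and carries no test of its own.

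**Figure D3:**
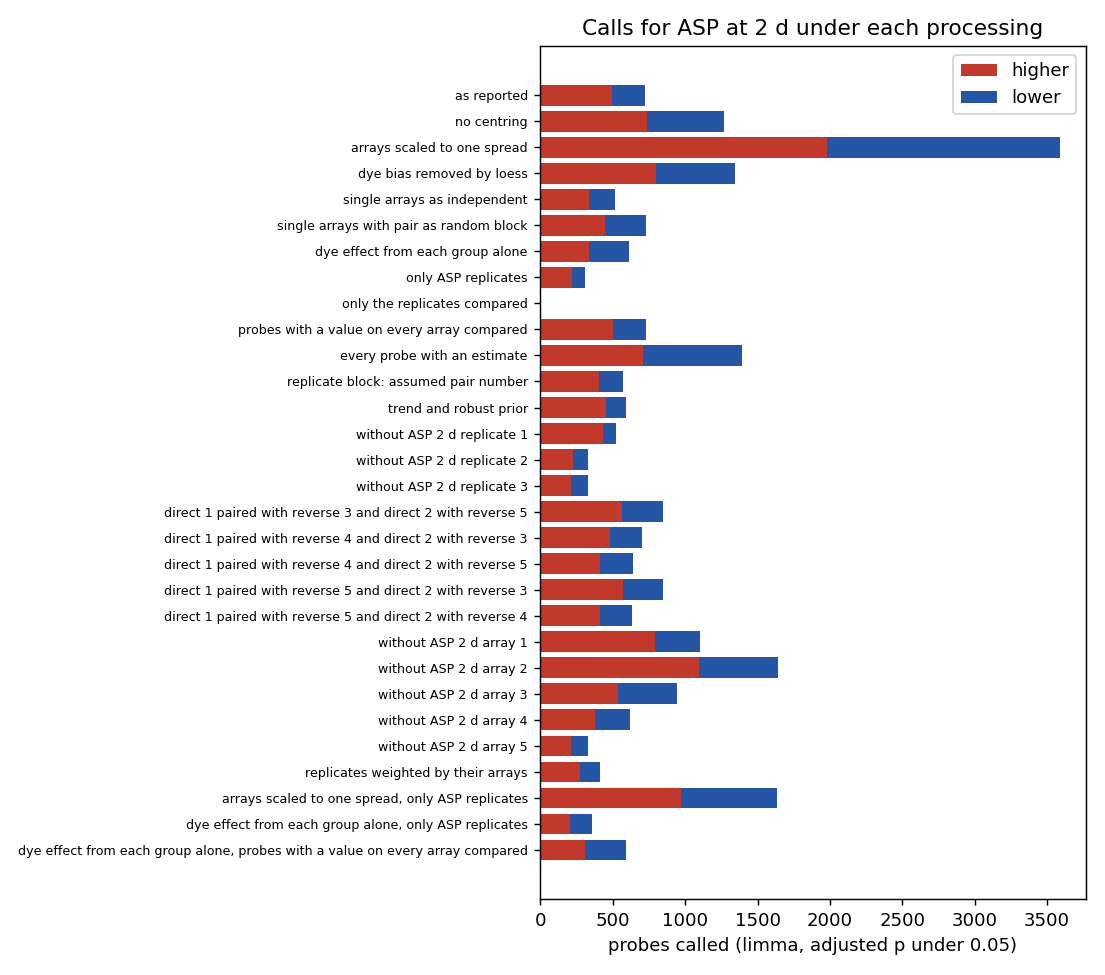
Number of probes called for ASP at 2 d (horizontal, limma adjusted p under 0.05) under each processing (vertical), raised probes in red and lowered in blue. The count runs from 0, with the spread taken from the 3 replicates at 2 d alone, to 3586, with arrays scaled to one spread, against 721 as reported.

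The next comparison asked what changed between 1 d and 2 d of ASP. Of 31874 probes tested for the difference in limma, 1 passed (0.00314%), and 1846, or 5.79%, had an unadjusted p under 0.05. This probe was among the raised ones, at 2.08 at 2 d and -1.5 at 1 d on the log2 scale. The count was 0 without ASP 2 d replicate 1 or 2 and without ASP 1 d replicate 1 or 3, and 4 without ASP 2 d replicate 3. With the assumed pair number as a block it was 0, where 1773 had an unadjusted p under 0.05. None of the 4 named probes passed for this difference over all probes. Probe 1773761_1 stood at 2.35 at 2 d and 0.8 at 1 d, a difference of 1.55 (SE 0.29, limma unadjusted p = 2.3e-05, adjusted p = 0.24). For probe 1776770_1 the levels were 3.02 and 1.44 and the difference 1.58 (SE 0.47, limma adjusted p = 0.76). Probe 1796764_1 stood at -2.55 and -0.96 (limma adjusted p of the difference 0.84) and probe 1775850_1 at -2.52 and -0.88 (0.76). All 4 were farther from 0 at 2 d than at 1 d, but they were chosen for their size at 2 d, which favours such differences.

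As a set, the raised probes had replicate medians of 0.698, 0.889 and 1.049 at 2 d and of 0.961, 0.386 and 0.383 at 1 d. The lowered probes had -0.853, -0.776 and -0.597 at 2 d and 0.011, -0.416 and -0.434 at 1 d. Both sets were chosen by their values at 2 d, which favours larger values there. Replicate 1 at 1 d stood apart from the others in both sets, and over all probes tested at 2 d its median was 0.229, while the other replicates lay at -0.015 and -0.017. Its part in these values was not tested. At 3 h the sets showed no split: the raised probes had a median of 0.07 and the lowered probes of 0.07, compared with 0.02 for all probes.

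Between 2 d and 3 d of ASP, 22 of 26090 tested probes differed in limma (0.0843%), 3 higher (0.0115%) and 19 lower (0.0728%) at 2 d. Without adjustment, 2100 probes (8.05%) had a p under 0.05. The 19 had a median log2 ratio of 0.1 at 2 d and 1.58 at 3 d, and all 19 were above 0 at 3 d. The 3 that were higher at 2 d had a median of 0.35 at 2 d and -1.26 at 3 d. Of the 22 probes, 3 were among the raised probes at 2 d, all of them lower at 2 d than at 3 d, and 19 were not called at 2 d. Of all probes tested at 2 d, 1.55% were raised, and the same 2 d arrays enter both calls. The size of the differences ranged from 1.05 to 2.34 on the log2 scale. The count was 0 with only ASP replicates in the fit, 14 without ASP 3 d replicate 2 and 11 without ASP 3 d replicate 3.

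Most probes called at 2 d had the same sign at 3 d and at 4 d of ASP. At 2 d the medians were 0.87 for the raised and -0.74 for the lowered probes. Both sets were chosen by these values, which favours larger ones at 2 d. At 3 d the raised probes had a median of 0.91, with 459 of 476 above 0, and the lowered probes a median of -0.63, with 198 of 211 below 0. Over all probes tested at 2 d the median at 3 d was 0 and 49.9% lay above 0. At 4 d the medians were 0.85 and -0.53, with 468 of 488 raised probes above 0 and 204 of 222 lowered probes below 0. The replicates at 3 d gave 0.899, 0.926 and 0.922 for the raised probes, a narrower span than at 2 d. It is not stated whether untreated RNA was shared between the times, so each time is given by its own values. Of the 4 named probes, 1776770_1 stood at 3.33 ± 0.09 (SD, n = 3) at 3 d, 1773761_1 at 2.69 ± 0.18, 1796764_1 at -2.97 ± 0.07 and 1775850_1 at -2.84 ± 0.15. Their differences between 2 d and 3 d were between -0.33 and 0.43 with SE of 0.29 to 0.67, and none of the 4 passed (limma adjusted p between 0.85 and 0.94). At 4 d they stood at 2.83 ± 0.56, 2.84 ± 0.37, -2.79 ± 0.41 and -2.89 ± 0.21 in the same order (SD, n = 3). At 3 h they lay between 0.15 and 0.5, and none passed (limma adjusted p between 0.34 and 0.94).

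**Figure D4:**
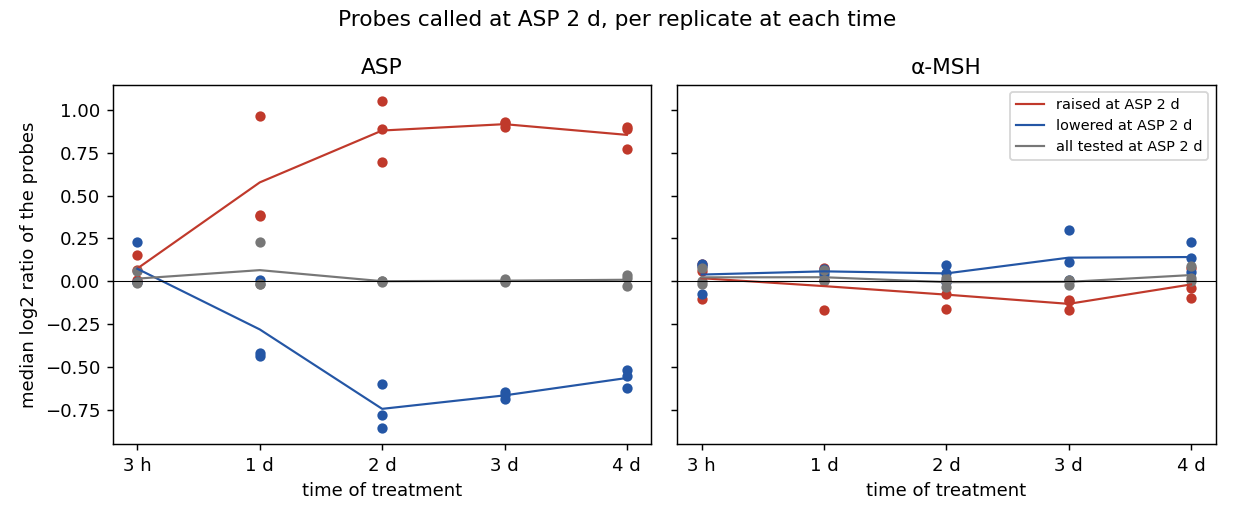
Median log2 ratio (vertical) of the 495 raised (red) and 226 lowered (blue) probes of ASP 2 d and of all probes tested there (grey), for each replicate (points) and as the mean of the 3 replicates (lines), by time of treatment (horizontal) with ASP on the left and α-MSH on the right. With ASP the sets lie together at 3 h and apart from 1 d on, and the point at 1 d that stands off, 0.961 for the raised probes, is replicate 1.

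**Figure D5:**
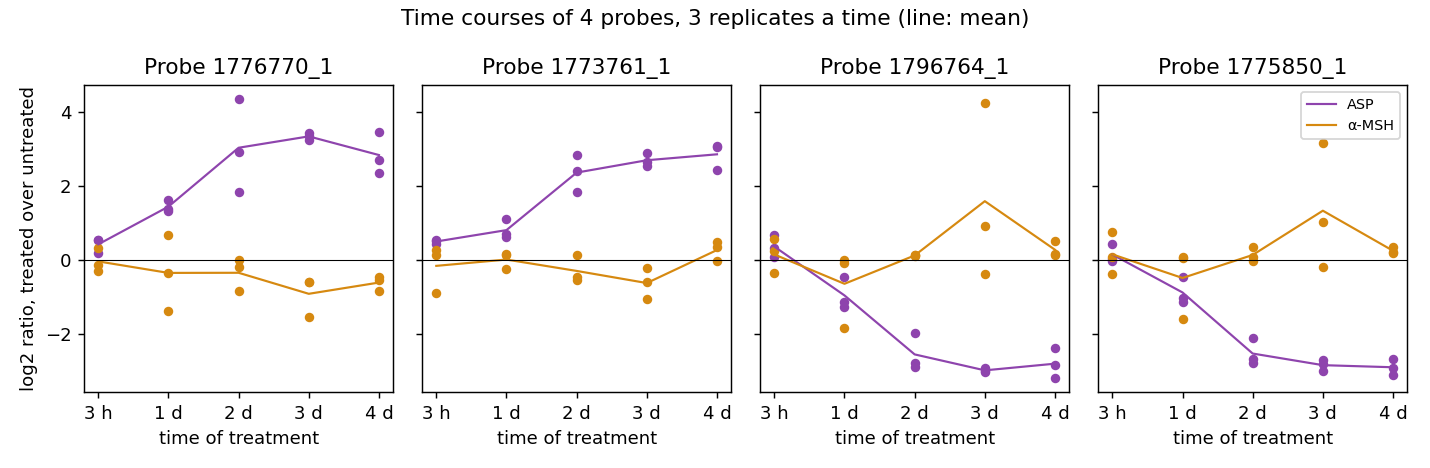
Log2 ratio (vertical) of the 4 probes in each replicate (points) and as the mean (lines) by time (horizontal), with ASP in purple and α-MSH in orange. With ASP the raised probes stood at 3.02 and 2.35 and the lowered at -2.55 and -2.52 at 2 d, and their means with α-MSH at 2 d lay between -0.35 and 0.14.

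The last comparison set ASP against α-MSH at 2 d, the antagonist against the agonist of the same receptor. Limma found 181 of 31858 probes to differ (0.568%), 134 higher (0.421%) and 47 lower (0.148%) with ASP. Without adjustment, 2886 probes (9.06%) had a p under 0.05. Of the 181, 131 were among the probes raised by ASP and 43 among those lowered, and 7 were in neither set. Of all probes tested at ASP 2 d, 1.55% were in the raised and 0.708% in the lowered set. The same ASP arrays enter both calls, which favours this overlap, so it is no separate result. The 134 had a median log2 ratio of 1.14 with ASP and -0.25 with α-MSH, and 126 of them were below 0 with α-MSH. The 47 had medians of -0.93 with ASP and 0.4 with α-MSH, and 45 were above 0 with α-MSH. Choosing probes by this difference favours opposite signs. Over the full sets, chosen without the α-MSH arrays at 2 d except for their share in the estimate of the spread, α-MSH at 2 d gave replicate medians of -0.16, -0.071 and 0 for the 495 raised probes. It gave 0.047, 0.098 and -0.005 for the 226 lowered ones. These values are small beside those with ASP at 2 d, but the sets were chosen for their size there, which favours such a gap. In each set 1 of 3 replicates with α-MSH lay at or across 0. Of the raised probes, 313 of 495 were below 0 with α-MSH at 2 d, and of the lowered probes 143 of 226 were above 0, where 49.1% of all tested probes were above 0. With α-MSH for 3 h the medians were 0.02 for the raised and 0.04 for the lowered probes, and for 1 d they were -0.03 and 0.06. They were -0.12 and 0.17 for 3 d of α-MSH and -0.05 and 0.14 for 4 d, while all tested probes had medians between 0.02 and 0.03. The sets did not separate at 3 h. At 1 d the replicates overlapped, with -0.168, 0.007 and 0.079 for the raised and 0.074, 0.041 and 0.061 for the lowered probes. They overlapped at 4 d too, where the highest replicate of the raised probes was 0.08 and the lowest of the lowered probes 0.057. The replicates of the lowered probes at 3 d ran from 0.007 to 0.297.

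Probe 1776770_1 differed between the drugs by 3.37 (3.02 with ASP and -0.35 with α-MSH, SE 0.47, limma adjusted p = 0.00068). Probe 1773761_1 differed by 2.65 (2.35 and -0.3, SE 0.29, limma adjusted p = 4.9e-05). Probe 1775850_1 was lower with ASP, at -2.52 against 0.14 (difference -2.66, SE 0.52, limma adjusted p = 0.016). The difference of -2.67 for probe 1796764_1 did not pass (SE 0.67, limma adjusted p = 0.072). The ASP and α-MSH arrays belong to different runs of database numbers and the doses differed, so drug, dose and run cannot be told apart in these differences. The count of 181 became 38 without MSH 2 d replicate 1, 42 without MSH 2 d replicate 2, 82 without ASP 2 d replicate 2 and 51 without ASP 2 d replicate 3.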

How the data were processed

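Per the labels' protocols, total RNA was purified with an RNeasy kit and both dyes were attached indirectly. The deposited values are log2 ratios of the 2 channels of each array; base 2 is assumed, and the numerator and any normalization by the authors are not stated. The pairing of direct with reverse arrays is an assumption from the numbers in their titles: direct 1 with reverse 3, direct 2 with reverse 4, and reverse 5 alone. Arrays were centred on their medians. The dye effect of each probe, taken from the differences between orientations at all times of a drug, was removed, and pairs were averaged. The 30 replicates were fitted together in limma 3.58.1 (R 4.3.3), with Benjamini-Hochberg adjustment over all probes tested. A probe was tested with a value in at least 2 replicates and both orientations. Named probes were the 2 largest rises and falls with 1 sign on all 5 dye-corrected arrays. The members and the rules were chosen with earlier results of these data known. Gene lists were prepared but could not be used, because probes have no gene names here. In a single simulated data set with known changes, the fit as reported made a larger share of false calls than its threshold allows. Weighting replicates by their arrays gave fewer, but their share also lay above the threshold. The simulated arrays of a drug all had the same dye effect, which the real arrays did not, so neither share need hold for the data. That weighting, leaving out single arrays and the combined alternatives were chosen after seeing the data.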

Additional observations from a re-analysis of the deposited data

Results flagged for a closer look

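Some probes differed between ASP at 2 d and another group when the difference itself was tested in limma. These were 1 probe against ASP at 1 d, 22 probes against ASP at 3 d and 181 probes against α-MSH at 2 d. The count against 1 d was 0 in several alternatives, among them the replicate block, and the count against 3 d was 0 with only ASP replicates. Of the 4 named probes, 1776770_1 differed from α-MSH by 3.37, 1773761_1 by 2.65 and 1775850_1 by -2.66 on the log2 scale. Array 3 was the lowest of the 5 for probe 1776770_1 and had the highest deposited median. Judged by the gap to its nearest neighbour over the range of the 5 arrays, no array passed the 95% limit of Dixon's test in the number of values, the median, the spread or the values of the 4 named probes, over 7 measures examined, where chance gives about 1 in 20.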

How the results depend on the processing

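The 721 calls for ASP at 2 d became 1271 without centring, 3586 with arrays scaled to one spread, 1346 with the dye bias removed by loess, 1395 with every probe that had an estimate, 311 with only ASP replicates and 0 with only the replicates of 2 d (2369 at an unadjusted p under 0.05 in limma). Chosen after seeing the data, weighting replicates by their arrays gave 408, scaling with only ASP replicates 1635, and the dye effect from each group with only ASP replicates 358. Here and below, every fit with the dye effect from each group also weighted replicates by their number of arrays. Leaving out a replicate gave 331 to 524 and leaving out an array 331 to 1643. The other 5 pairings of direct and reverse arrays gave 635 to 846. The 4 named probes passed in 28 of 29 alternatives, though those without replicate 3 and without array 5 are the same fit. Their sign, for which they were chosen, did not turn. The exception was the fit with only the replicates of 2 d, with an adjusted p of 0.56.

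The single call between ASP at 2 d and 1 d became 3 with the dye effect from each group and 26 with every probe that had an estimate. With arrays scaled to one spread 1 probe passed as well, but it was lower at 2 d, whereas the reported probe was higher. The other alternatives varied further. The count became 0 in limma without centring (1827 at an unadjusted p under 0.05), with loess (2091), with single arrays as independent (1613) and with only ASP replicates (1064). It was also 0 with only the replicates compared (398), with values on every array (1346) and with the replicate block (1773), and 0 to 4 without a replicate. The 22 calls between 2 d and 3 d became 14 without centring, 457 with scaling, 53 with loess, 14 with single arrays, 60 with the dye effect from each group, 14 with values on every array and 852 with every probe that had an estimate. They became 0 with only ASP replicates (1399 at an unadjusted p under 0.05 in limma), 0 with only the replicates compared (1265) and 11 to 26 without a replicate. The 181 calls against α-MSH became 357 without centring, 1081 with scaling, 367 with loess, 283 with single arrays, 379 with the pair as a random block, 433 with every probe that had an estimate, 0 with only the replicates compared (2519) and 38 to 199 without a replicate. The causes of these changes were not tested.

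With the assumed pair number as a replicate block, 570 probes passed for ASP at 2 d, 544 of them among the 721. The numbers were not shown to pair the samples: deviations of same-numbered replicates between 2 d and the other ASP times correlated at -0.474 to 0.091, and those of different numbers at -0.459 to 0.552. Arrays of an assumed pair had a consensus correlation of -0.112. Signal over background was not available in the values used, so dim spots could not be set apart.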
